A study of Mus musculus with 9 samples.

Results

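The 10 genes described here handle iron: the ferritin subunits Fth1 and Ftl1, the ferritin turnover receptor Ncoa4, the uptake genes Tfrc, Steap3 and Slc11a2, the exporter Slc40a1, the iron regulatory proteins Aco1 and Ireb2, and the mitochondrial importer Slc25a37. They were chosen by symbol, with no measured value in the rule, but with earlier results of these data known. All 10 were among the 21939 genes of the deposited count table. Bulk RNA sequencing was carried out on long-term haematopoietic stem cells (LT-HSCs), the most primitive blood-forming cells, from C57BL/6 mice. The cells were sorted from marrow as Lin- Sca1+ cKit+ CD34- Flt3- cells. There were 3 groups of 3 libraries: young (mice of 10 to 16 weeks), aged (over 80 weeks), and aged+Ri, in which cells from aged mice were given 100 µM Rhosin, the RhoA inhibitor that the labels abbreviate as Ri. All cells of all 3 groups, controls included, spent 16 h in HBSS that contained 10% serum, under 3% oxygen and 5% CO2, before RNA was taken, so no group shows LT-HSCs as they leave the marrow. The labels give a sequencing batch for each library: batch 2 for young 2, aged 2, aged+Ri 2 and aged+Ri 3, batch 1 for aged 1 and aged+Ri 1, batch 3 for young 3 and aged 3, and batches 1 and 3 for young 1. They do not say how many mice each library holds, or whether an aged and an aged+Ri library came from the same mice, so p-values measure only the spread between these libraries.

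Cells take up iron bound to transferrin through the transferrin receptor, reduce it in endosomes, carry it into the cytosol, and then use it in mitochondria, store it in ferritin or export it through ferroportin. When cytosolic iron is scarce, the iron regulatory proteins bind hairpins called iron-responsive elements, which blocks translation of ferritin and ferroportin messages and stabilises the transferrin receptor message. Ferritin messages are also raised transcriptionally by the oxidative stress factor NRF2, and iron is released from ferritin by NCOA4, which carries ferritin to the lysosome. RNA levels such as those measured here do not show the translational side of this control.

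The library totals lay between 34358101 and 72503142 counts. Between 20308 and 21272 genes were detected in a young library and between 15333 and 18288 in an aged or aged+Ri library. All 12 HSC markers had counts in every library and summed to between 1842 and 3362 CPM in young, 2045 and 2721 CPM in aged, and 1342 and 2329 CPM in aged+Ri libraries. CPM are counts scaled to library size by edgeR's TMM method. Of these 12 markers 9 were lower in aged+Ri than in aged, with a median log2 difference of -0.55. In that comparison 0 passed edgeR's adjusted threshold, and 3 had an unadjusted p under 0.05. Against young, 9 were lower in aged+Ri, with a median log2 difference of -0.47, and 5 had an unadjusted p under 0.05. There 1 marker passed, and it was higher in aged+Ri (edgeR adjusted p = 0.0394). The part of the HSC markers in the results below was not tested. Of the genes the sort selected against, Cd34 lay between 7.96 and 95.7 CPM and Flt3 between 0.0658 and 21.9 CPM. The Y-linked gene Ddx3y was at 65.7 CPM in young 2 and 182.5 CPM in young 3 and at most 0.0282 CPM in the other libraries, so young 2 and young 3 hold RNA of male cells and the others little or none. Male RNA thus differed between groups as well, and the part of sex in the comparisons with young was not tested. Markers of neutrophils and their progenitors summed to between 763.5 and 3085 CPM in young, 242.9 and 8569 CPM in aged, and 39.4 and 70.2 CPM in aged+Ri libraries. In a bulk sample, fewer cells of a type and less RNA per cell cannot be told apart.

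Matches to the iron-responsive element in the members are shown first. Such elements are the sequences through which messages are read by the iron regulatory proteins encoded by Aco1 and Ireb2. A search of the sense strand of the GENCODE M21 transcripts (build GRCm38) for the canonical element, a CAGTGN loop flanked by 5 bases on each side that pair with each other (G with T allowed) and an unpaired C just before them, found an element in the untranslated regions of 4 of the 10 members. Each run below holds 29 bases, and the capitals mark the 6-base apical loop. A match is a description of the letters and not a proven site, and no match says only that these letters are not in these transcripts.
Fth1 5′ UTR: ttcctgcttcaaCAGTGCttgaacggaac
Ftl1 5′ UTR: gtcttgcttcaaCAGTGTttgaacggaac
Slc40a1 5′ UTR: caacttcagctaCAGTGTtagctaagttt
Tfrc 3′ UTR element a: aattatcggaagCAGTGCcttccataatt
Tfrc 3′ UTR element b: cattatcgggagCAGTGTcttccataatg
Tfrc 3′ UTR element c: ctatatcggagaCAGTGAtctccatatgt
Tfrc 3′ UTR element d: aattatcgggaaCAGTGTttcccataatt

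The Fth1 element lies in exon 1 at chr19:9982732-9982760 on the plus strand, the Ftl1 element in exon 1 at chr7:45459779-45459807 on the minus strand, and the Slc40a1 element in exon 1 at chr1:45925465-45925493 on the minus strand. The 4 Tfrc elements lie in exon 19, the last exon, on the plus strand, between chr16:32631219-32631247 and chr16:32631710-32631738. In this search Fth1, Ftl1 and Slc40a1 thus had 1 match each ahead of the coding sequence, and Tfrc had 4 behind it. An element with a mismatch or a bulge in its stem is missed by the search. These are therefore not counts of all the elements that the members carry. Across 21875 protein-coding genes, 0.128% held such an element in a 5′ UTR and 0.581% in a 3′ UTR.

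Ferritin stores iron in a hollow shell of heavy and light chains, and the genes of both chains had their highest levels in the aged+Ri libraries. Ftl1 (chr7:45457944-45459884, minus strand), the light chain, helps the iron core form. It stood at 7487, 8268 and 24829 CPM in young 1, 2 and 3, at 32095, 25052 and 20947 CPM in aged 1, 2 and 3, and at 54057, 46017 and 60759 CPM in aged+Ri 1, 2 and 3. Every aged+Ri library was above every aged and young library, while young 3 lay among the aged libraries and far above the other young ones. By raw counts Ftl1 took between 0.689% and 5.60% of a library, and it was the gene with the most counts in every library except young 1 and young 2, where it ranked 7 and 4.

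Ftl1 averaged 13528 ± 9795 CPM in young, 26031 ± 5638 CPM in aged and 53611 ± 7381 CPM in aged+Ri (SD, n = 3 in each). It rose by 1.99 (log2; SE 0.39) from young to aged+Ri, with an adjusted p of 0.0298 by edgeR's quasi-likelihood test, and by 2.78 (log2; edgeR adjusted p = 0.000741) when young 3 was left out. Aged stood above young by 0.94 (log2; SE 0.38; edgeR adjusted p = 0.26) and aged+Ri above aged by 1.04 (log2; SE 0.38; edgeR adjusted p = 0.445), and neither passed. The young group's spread came from young 3: without it the aged to young difference was 1.74 (log2; edgeR adjusted p = 0.0111), and keeping young 1 alone gave 1.86 (edgeR adjusted p = 0.0254), its spread being assumed to equal that of the other groups. Within batch 3, which pairs young 3 with aged 3, Ftl1 was lower in aged by a difference of -0.25 on the log2(CPM + 0.5) scale, and within batch 2 it was higher by 1.60.

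The table also lists Ftl1-ps1, a near-identical copy of Ftl1, and reads shared by the 2 could be split between them. For each Ftl1 count the table gives between 0.117 and 0.128 counts of Ftl1-ps1 in every library. Adding the copies to their parent genes left the aged+Ri to young difference of Ftl1 at 1.98 (log2). Ftl1 also overlaps Gm10252 on the opposite strand and the microRNA gene Gm22133 on its own strand. No source says that reads were assigned by strand. The Fthl17 copies of Fth1 held at most 4 counts in a library and the mitochondrial ferritin gene Ftmt at most 8.

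Fth1 (chr19:9980598-9985098, plus strand) is the heavy chain, whose ferroxidase site oxidises iron on entry. It stood at 2958, 4711 and 8716 CPM in the young libraries, 10173, 6316 and 4938 CPM in the aged ones, and 14237, 16860 and 20768 CPM in aged+Ri. The aged+Ri libraries were above all others, and the young and aged libraries overlapped. Fth1 rose by 1.66 (log2; SE 0.37) from young (5462 ± 2951 CPM) to aged+Ri (17288 ± 3286 CPM), with an edgeR adjusted p of 0.0456, just under the threshold of 0.05. Aged+Ri stood above aged (7142 ± 2714 CPM) by 1.28 (log2; SE 0.37; unadjusted p = 0.00413; edgeR adjusted p = 0.355), which did not pass over 15127 genes. Between aged and young the difference was 0.39 (log2), with a 95% interval from -0.40 to 1.17. Its sign differed between pairs of single libraries from the same batch. On the log2(CPM + 0.5) scale the difference was 0.42 for aged 2 against young 2 (batch 2) and -0.82 for aged 3 against young 3 (batch 3). Batch and library cannot be told apart in such pairs.

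Ncoa4 (chr14:32159865-32179855, plus strand) encodes the receptor that binds the ferritin heavy chain and delivers ferritin for degradation. Its level ran opposite to the ferritin genes: 626.3, 499.7 and 251.7 CPM in young, 218.7, 287.7 and 214.3 CPM in aged, and 92.0, 166.9 and 147.4 CPM in aged+Ri libraries. All aged+Ri libraries were below all aged and young libraries, and young 3 lay within the aged range. Ncoa4 fell by 1.76 on the log2 scale (SE 0.37) from young (459.3 ± 190.6 CPM) to aged+Ri (135.4 ± 38.9 CPM), with an edgeR adjusted p of 0.0376. Aged (240.2 ± 41.2 CPM) lay below young by a log2 difference of -0.94 (edgeR adjusted p = 0.247) and aged+Ri below aged by -0.83 (edgeR adjusted p = 0.511), neither past the threshold. Within batches the aged+Ri to aged difference was -1.24 in batch 1 and -0.87 in batch 2, and the aged+Ri to young difference in batch 2 was -1.67.

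**Figure D1:**
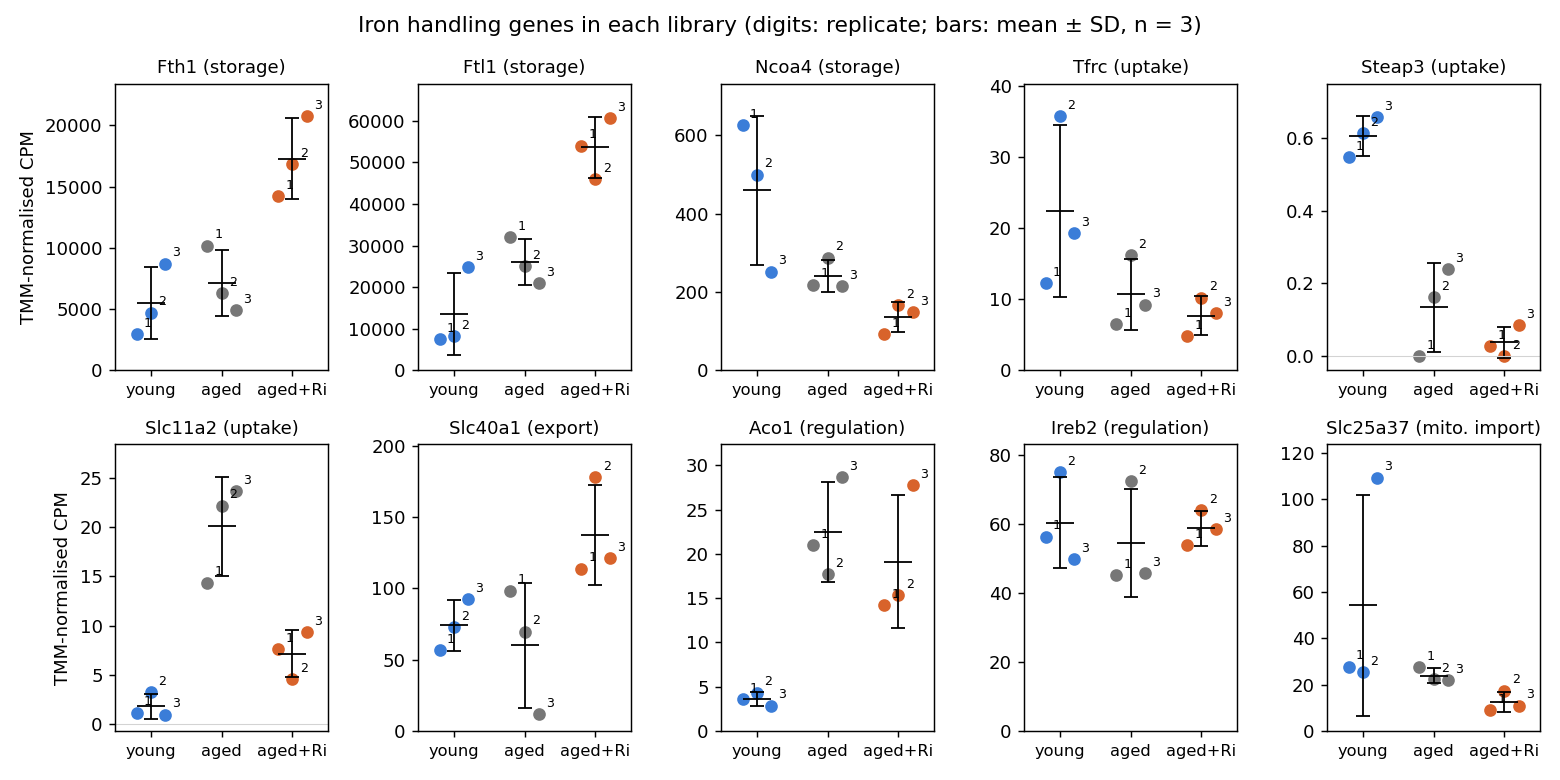
TMM-normalised CPM (vertical axis, linear, a separate scale for each gene) of the 10 iron handling genes in the young, aged and aged+Ri libraries; digits are replicate numbers and bars the mean ± SD of 3 libraries. Fth1 and Ftl1 are highest and Ncoa4 lowest in all 3 aged+Ri libraries, Slc11a2 is highest in the 3 aged libraries, and Slc25a37 and Slc40a1 each have 1 library apart, young 3 at 109.4 CPM and aged 3 at 11.9 CPM.

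These 3 calls between aged+Ri and young lay close to the threshold and rested on small groups. Fth1 no longer passed without young 1 (edgeR adjusted p = 0.104), young 2 (0.0933), aged 1 (0.0527), aged 2 (0.0713), aged+Ri 1 (0.0903), aged+Ri 2 (0.0622) or aged+Ri 3 (0.154). Ftl1 no longer passed without young 1 (0.0688), young 2 (0.0646), aged+Ri 1 (0.0962) or aged+Ri 3 (0.0932). Ncoa4 no longer passed without any one of the 9 libraries except young 3, with edgeR adjusted p from 0.0579 without aged 3 and 0.0636 and 0.0643 without aged 1 and aged 2, to 0.0664, 0.151 and 0.167 without aged+Ri 2, 3 and 1, and 0.0911 and 0.0801 without young 1 and young 2. With sequencing batch as a covariate Ncoa4 passed alone (edgeR adjusted p = 0.049), and Fth1 and Ftl1 gave 0.164 and 0.0796. In that fit young 1, labelled with batches 1 and 3, was the only library of its batch level. It thus added nothing to the group differences, and young 2 and young 3 alone stood for the young group. The effect of batch and the loss of young 1 cannot be told apart there. Fth1 also failed to pass with DESeq2 size factors in edgeR (adjusted p = 0.0575) and with a stricter filter on low counts (0.0533), and with only the 2 groups compared Fth1, Ftl1 and Ncoa4 gave edgeR adjusted p of 0.0802, 0.0802 and 0.0832. In none of the alternatives tried did the aged+Ri to young difference of Fth1, Ftl1 or Ncoa4 change sign.

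Ratios within a library do not depend on the scaling between libraries, and they are given here per kb of the longest protein-coding transcript. The ratio of Fth1 to Ncoa4 was 12.8, 25.6 and 94.2 in the young libraries, 126.6, 59.7 and 62.7 in aged, and 421.2, 274.8 and 383.2 in aged+Ri. The aged+Ri libraries were above all others, while young 3 lay among the aged ones. The ratio of Ftl1 to Ncoa4 had the same arrangement, at 50.2, 69.5 and 414.3 in young, 616.4, 365.6 and 410.5 in aged, and 2468, 1158 and 1730 in aged+Ri. That aged+Ri was highest in both ratios to Ncoa4 follows from the levels of the single genes given above. It is not a further result. The ratio of light to heavy chain, Ftl1 to Fth1, moved far less: 3.91, 2.71 and 4.40 in young, 4.87, 6.12 and 6.55 in aged, and 5.86, 4.21 and 4.52 in aged+Ri. Every aged library was above every young library in that ratio, and the aged and aged+Ri libraries overlapped.

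**Figure D2:**
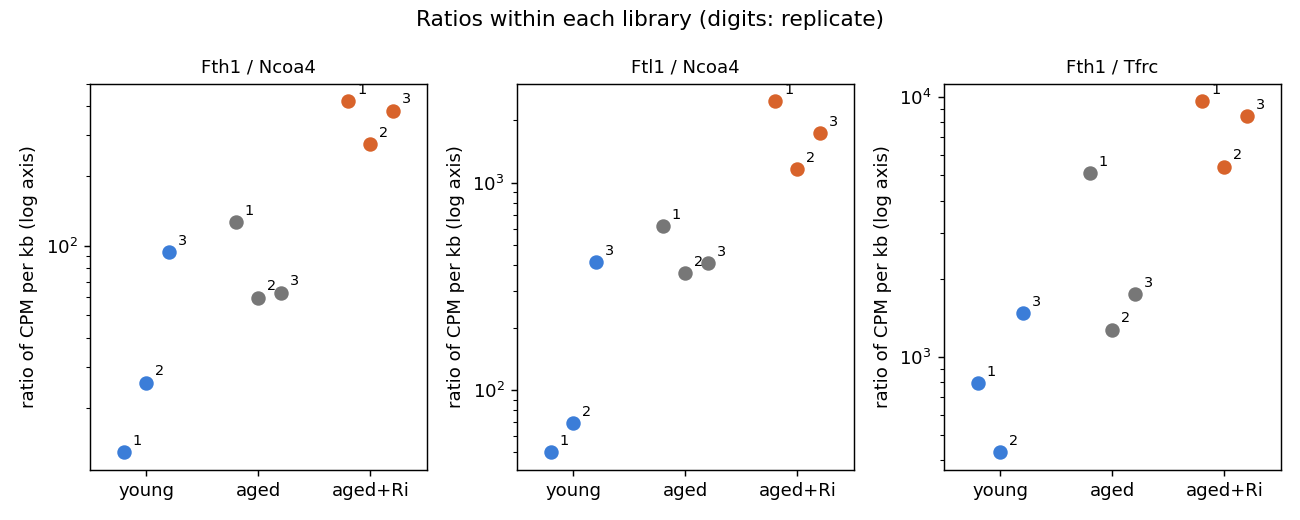
Ratios of CPM per kb within each library (vertical axes, log scale) for Fth1 to Ncoa4, Ftl1 to Ncoa4 and Fth1 to Tfrc, by group; each point is 1 library and the digit its replicate number. The aged+Ri libraries are the 3 highest in each panel, and young 3 and aged 1 are the highest of their own groups. For the ratios to Ncoa4 the place of aged+Ri follows from the levels of the single genes.

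The uptake genes were expressed at far lower levels. Tfrc (chr16:32608920-32632794, plus strand) encodes the transferrin receptor. It was at 12.2, 35.8 and 19.3 CPM in young, 6.54, 16.2 and 9.24 CPM in aged, and 4.83, 10.2 and 8.02 CPM in aged+Ri libraries. All aged+Ri libraries were below all young ones, and the aged libraries overlapped both groups. Tfrc was lower in aged+Ri (7.69 ± 2.71 CPM) than in young (22.5 ± 12.1 CPM) by a log2 difference of -1.55 (SE 0.72; 95% interval -3.10 to 0.01; edgeR adjusted p = 0.217), which did not pass. The aged to young difference was -1.07 (log2; edgeR adjusted p = 0.469) and the aged+Ri to aged difference -0.47 (log2; edgeR adjusted p = 0.935). Young 2 had the highest Tfrc, and without it the differences from young were -0.97 for aged+Ri (edgeR adjusted p = 0.461) and -0.44 for aged (0.807). Per kb, Fth1 exceeded Tfrc 791.5, 430.5 and 1478 times in young, 5089, 1274 and 1750 times in aged, and 9650, 5405 and 8476 times in aged+Ri libraries, again with no overlap between aged+Ri and the rest.

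Steap3 (chr1:120190757-120272705, minus strand), the endosomal ferrireductase that prepares transferrin iron for transport, was close to the limit of detection. It had 27, 24 and 23 counts in the young libraries, 0, 9 and 15 in the aged ones, and 1, 0 and 3 in aged+Ri. It passed the filter on low counts through the young group, so its difference had to point downwards and supports nothing. A floor of 3 counts corresponds to between 0.041 and 0.0855 CPM in these libraries, and the aged+Ri libraries were at or under 3 counts, so no fold is given for them.

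Slc11a2 (chr15:100387898-100425072, minus strand), also called DMT1, is the transporter that moves ferrous iron from the endosome to the cytosol. Its level was 1.21, 3.29 and 0.998 CPM in young, 14.4, 22.2 and 23.6 CPM in aged, and 7.61, 4.61 and 9.32 CPM in aged+Ri libraries. The 3 groups did not overlap at all, with aged highest, aged+Ri between, and young lowest. Aged stood above young by 3.45 (log2; SE 0.87; 95% interval 1.58 to 5.32; unadjusted p = 0.00152; edgeR adjusted p = 0.173), the largest difference of any member in that comparison, and it did not pass. DESeq2 called this difference (log2 3.38; adjusted p = 5.6e-06) and limma-voom did not (adjusted p = 0.138). Aged+Ri lay below aged by a log2 difference of -1.48 (SE 0.80; edgeR adjusted p = 0.619) and above young by 1.97 (SE 0.82; edgeR adjusted p = 0.175). Without young 2, the young library with the most Slc11a2, aged and aged+Ri stood above young by 4.27 and 2.77 (log2; edgeR adjusted p = 0.119 and 0.113). Within batches the aged to young difference was 2.58 and 4.01, and the aged+Ri to aged difference -0.87 and -1.68, on the log2(CPM + 0.5) scale. The gene overlaps Gm5475 on the opposite strand, and no source says that reads were assigned by strand, so its count is uncertain.

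Slc40a1 (chr1:45908068-45926523, minus strand) encodes ferroportin, the only known cellular iron exporter. It was at 56.9, 72.6 and 92.6 CPM in young, 98.5, 69.7 and 11.9 CPM in aged, and 113.9, 177.9 and 121.3 CPM in aged+Ri libraries. The aged+Ri libraries were above all others, and aged 3 was far below the rest. Aged+Ri (137.7 ± 35.0 CPM) stood above aged (60.1 ± 44.1 CPM) by 1.20 (log2; SE 0.57; 95% interval -0.03 to 2.42; edgeR adjusted p = 0.56) and above young (74.0 ± 17.9 CPM) by 0.90 (log2; edgeR adjusted p = 0.352), and neither passed. Without aged 3 the aged to young difference turned from -0.30 to 0.21 (log2). With batch as a covariate, a fit in which young 1 added nothing to the group differences, the aged+Ri to young difference turned to -0.19. Aged 3 also held the highest neutrophil and progenitor sum, 8569 CPM, and the highest macrophage sum, 1534 CPM, of which Lyz2 made up 1401 CPM. The part of either in the low Slc40a1 was not tested.

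The iron regulatory proteins are encoded by Aco1 (chr4:40143081-40198338, plus strand), which doubles as the cytosolic aconitase when it holds an iron-sulfur cluster, and Ireb2 (chr9:54863789-54912530, plus strand), which is degraded when iron is plentiful. Aco1 was at 3.62, 4.34 and 2.85 CPM in young, 21.0, 17.7 and 28.7 CPM in aged, and 14.2, 15.4 and 27.7 CPM in aged+Ri libraries. Both aged groups were above every young library and overlapped each other. Aged (22.4 ± 5.64 CPM) stood above young (3.60 ± 0.743 CPM) by 2.64 (log2; SE 0.66; unadjusted p = 0.00144; edgeR adjusted p = 0.173) and aged+Ri (19.1 ± 7.50 CPM) above young by 2.41 (log2; SE 0.65; edgeR adjusted p = 0.0759), and neither passed. DESeq2 called both, with log2 differences of 2.56 (adjusted p = 2.5e-06) and 2.35 (adjusted p = 1.5e-05), while limma-voom gave adjusted p of 0.159 and 0.0844. Aged+Ri differed from aged by -0.23 (log2), with a 95% interval from -1.57 to 1.10.

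Ireb2 showed no difference that the data could resolve. It was at 56.3, 75.1 and 49.7 CPM in young, 45.2, 72.5 and 45.8 CPM in aged, and 53.8, 64.0 and 58.5 CPM in aged+Ri libraries, and the 3 groups overlapped. The log2 differences were -0.15 (95% interval -0.95 to 0.65) for aged against young, 0.11 (-0.69 to 0.91) for aged+Ri against aged, and -0.04 (-0.84 to 0.76) for aged+Ri against young, each of which allows a change of over 1.5-fold. The balance between both regulators per kb, Ireb2 to Aco1, was 10.3, 11.5 and 11.6 in young, 1.43, 2.72 and 1.06 in aged, and 2.52, 2.76 and 1.40 in aged+Ri libraries. All 6 libraries of aged cells were below all 3 young ones in this ratio.

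Slc25a37 (chr14:69241848-69285112, minus strand), or mitoferrin-1, brings iron into mitochondria and is best known from red cell precursors. It was at 27.8, 25.5 and 109.4 CPM in young, 27.6, 22.2 and 21.8 CPM in aged, and 8.90, 17.4 and 11.0 CPM in aged+Ri libraries. The aged+Ri libraries were below all others, and young 3 was far above the other young libraries. Aged+Ri (12.4 ± 4.45 CPM) lay below young (54.2 ± 47.8 CPM) by a log2 difference of -2.13 (SE 0.63; edgeR adjusted p = 0.0902) and below aged (23.9 ± 3.22 CPM) by -0.94 (SE 0.61; edgeR adjusted p = 0.699), and neither passed. Without young 3 the aged+Ri to young difference was -1.09 (log2; edgeR adjusted p = 0.252), and the aged to young difference went from -1.18 (adjusted p = 0.347) to -0.15 (0.914). Red cell markers did not move together in young 3: it had the highest Klf1 (23.8 CPM), Ermap (22.8 CPM) and Car1 (84.0 CPM) of the 9 libraries, but a marker sum of 303.2 CPM against 816.2 CPM in young 1, and Hba-a1 at 2.31 against 257.0 CPM. Their part in its Slc25a37 level was not tested. The gene overlaps Gm20236 and the antisense Gm27222, Gm27223 and Gm31748, so its count is uncertain without strand.

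Ordered by level per kb, the ferritin genes stood far above the rest in every group. In young libraries Ftl1 (13975 ± 10119 CPM per kb) was followed by Fth1 (3656 ± 1975), Ncoa4 (113 ± 46.9), Slc40a1 (22.0 ± 5.31), Slc25a37 (13.0 ± 11.4), Ireb2 (10.5 ± 2.28), Tfrc (4.59 ± 2.47), Aco1 (0.94 ± 0.194), Slc11a2 (0.415 ± 0.287) and Steap3 (0.117 ± 0.0107). Taking mean ± SD as the spread, the neighbours Ftl1 and Fth1, Slc40a1 and Slc25a37, and Slc25a37 and Ireb2 lay within their spread of each other, although Ftl1 exceeded Fth1 in every library. In aged libraries the order was Ftl1 (26892 ± 5825 CPM per kb), Fth1 (4781 ± 1816), Ncoa4 (59.1 ± 10.1), Slc40a1 (17.8 ± 13.1), Ireb2 (9.44 ± 2.7), Aco1 (5.86 ± 1.47), Slc25a37 (5.71 ± 0.771), Slc11a2 (4.54 ± 1.13), Tfrc (2.18 ± 1.02) and Steap3, and each neighbouring pair from Slc40a1 to Slc11a2 lay within its spread. In aged+Ri libraries Ftl1 (55383 ± 7625 CPM per kb) and Fth1 (11572 ± 2200) were followed by Slc40a1 (40.9 ± 10.4) and Ncoa4 (33.3 ± 9.57), which lay within their spread, then by Ireb2 (10.2 ± 0.88), Aco1 (4.98 ± 1.96) and Slc25a37 (2.98 ± 1.07). Slc11a2 (1.63 ± 0.54) and Tfrc (1.57 ± 0.553) came next and Steap3 last, and each neighbouring pair from Aco1 to Tfrc lay within its spread. Ncoa4 was above Slc40a1 in the young and aged group means and below it in aged+Ri.

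Between aged and young, 0 of the 10 members passed edgeR's test, as did 0.0331% of the genes tested. At an unadjusted p under 0.05 there were 4 members (Slc11a2, Aco1 and Ftl1 higher, Ncoa4 lower), against 16.2% of the genes tested. Leaving aside Steap3, which passed the filter only through the young group, the groups did not overlap for 2 of 9 members, Slc11a2 and Aco1, both higher in aged, against 24.7% of the genes tested. DESeq2 called 2 of the 9, Slc11a2 and Aco1, against 10.1% of the genes it tested, and limma-voom 0, against 0.119%. The median log2 difference of the 9 was -0.15, beside -0.13 over the genes tested.

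Between aged+Ri and aged, 0 members passed edgeR's test, as did 0% of the genes tested, and DESeq2 and limma-voom called 0 members as well, against 2.73% and 0.364% of the genes they tested. An unadjusted p under 0.05 was reached by 3 members (Fth1 and Ftl1 higher, Ncoa4 lower), against 9.14% of the genes tested. The groups did not overlap for 6 members, with Fth1, Ftl1 and Slc40a1 above and Slc11a2, Ncoa4 and Slc25a37 below, against 16.5% of the genes tested. The median of the 9 members other than Steap3 was -0.23, beside -0.06 over the genes tested.

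In aged+Ri against young, edgeR called 3 of the 10 members, against 1.45% of the genes tested, and these were Fth1 and Ftl1 (up) and Ncoa4 (down). Leaving aside Steap3 for the same reason, an unadjusted p under 0.05 was reached by 6 of 9 members, against 23.4%, and the groups did not overlap for 8 of 9, all but Ireb2, against 32.3%. DESeq2 called 7 of the 9, all but Slc40a1 and Ireb2, against 15.4% of the genes it tested, and limma-voom called the 3 that edgeR called, against 4.26%. The median of the 9 was 0.90, beside -0.24 over the genes tested. With Steap3 counted, 5 of the 10 members were higher and 5 lower, and the median was 0.43. The members thus did not move in 1 direction as a set. The comparisons share libraries and are not independent of each other. Because the members were chosen with earlier results of these data known, the shares set beside them are a description and not a test.

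**Figure D3:**
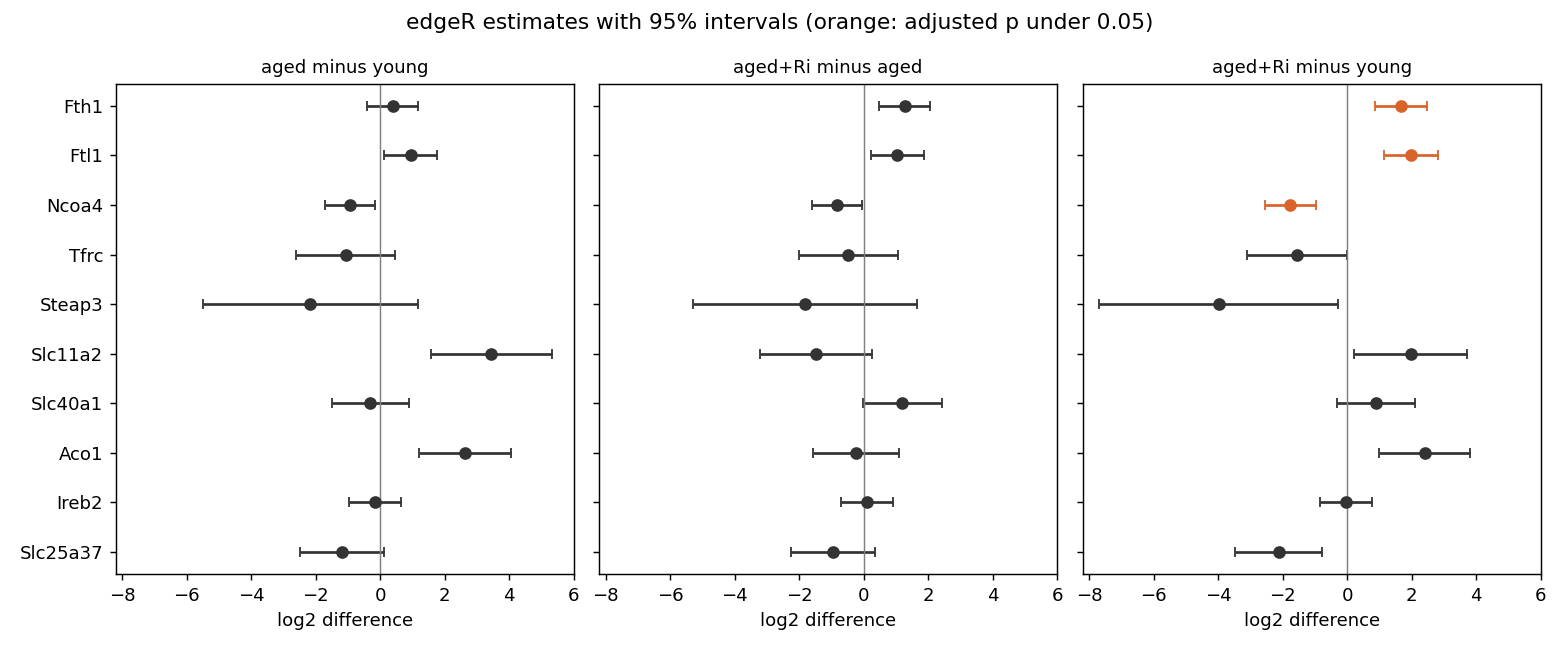
Log2 differences (horizontal axis) of the 10 members in the 3 comparisons, with 95% intervals from edgeR's quasi-likelihood fit to 9 libraries; orange marks an adjusted p under 0.05. Orange appears for Fth1 (1.66), Ftl1 (1.99) and Ncoa4 (-1.76) between aged+Ri and young, and the interval of Steap3, whose estimates depend on the prior count, is the widest in each panel.

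The genes nearest to the ferritin genes in pattern were taken among 3600 other genes with a mean of at least 50 CPM, by the root mean square distance of centred log2 CPM over the 9 libraries. For Ftl1 the nearest was its copy Ftl1-ps1 (0.0437), then Ninj1, a membrane protein of cell rupture (0.181), Clpp, a mitochondrial protease (0.321), Psmc5, a proteasome ATPase (0.337), and Eif4ebp1, an inhibitor of cap-dependent translation (0.343), with a median distance of 1.09 over the genes compared. For Fth1 the nearest were Ninj1 (0.236), Ftl1 (0.368), Ftl1-ps1 (0.373), the pentose phosphate enzyme Taldo1 (0.388) and the peroxiredoxin Prdx6 (0.391), with a median of 0.983. Ninj1 was at 55.0, 76.5 and 183.7 CPM in young, 208.2, 153.4 and 127.5 CPM in aged, and 392.4, 324.1 and 382.0 CPM in aged+Ri libraries. Its young 3 value lay among the aged libraries, as for Ftl1. These distances describe 9 libraries of 3 groups and carry no test.

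The other genes of iron handling were taken from 6 lists of 65 genes, of which 57 were tested. EdgeR called 0 of them between aged and young, 0 between aged+Ri and aged, and 1 between aged+Ri and young. At an unadjusted p under 0.05 there were 8 higher and 6 lower between aged and young, 4 higher and 2 lower between aged+Ri and aged, and 8 higher and 3 lower between aged+Ri and young. These are 24.6%, 10.5% and 19.3% of the list genes tested, beside 16.2%, 9.14% and 23.4% of all genes tested. Their median log2 differences, 0.09, 0.15 and 0.10, lay above those of all genes tested. Some list genes, like Steap3, passed the filter on low counts only through the young group. Heph was at 0.371 to 0.485 CPM in young and at most 0.0542 CPM in aged. Cp was at 0.383 to 0.713 CPM in young and at most 0.0903 CPM in aged. Their differences from young had to point downwards, so the counts of lower genes and the shares that include them support nothing. The gene called was Glrx5, a mitochondrial glutaredoxin that passes on iron-sulfur clusters. It was at 69.4, 54.0 and 42.1 CPM in young, 118.0, 129.5 and 160.8 CPM in aged, and 170.9, 146.2 and 185.7 CPM in aged+Ri libraries, and rose by 1.60 (log2; SE 0.32; edgeR adjusted p = 0.031) from young to aged+Ri. Both aged groups were above every young library.

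In haem synthesis and breakdown, 0 of 12 tested genes passed in any comparison. Hmox1, haem oxygenase 1, which frees iron from haem and is an NRF2 target like the ferritin genes, was at 15.3, 66.8 and 197.2 CPM in young, 251.8, 66.9 and 31.1 CPM in aged, and 1065, 795.4 and 654.0 CPM in aged+Ri libraries. All aged+Ri libraries were above all others, with a log2 difference from aged of 2.85 (SE 0.93; edgeR adjusted p = 0.425) and from young of 3.17 (edgeR adjusted p = 0.101). Its constitutive relative Hmox2 averaged 57.7 ± 24.3, 107.9 ± 27.2 and 186.0 ± 34.3 CPM in young, aged and aged+Ri, and the aged+Ri to young difference of 1.69 (log2; edgeR adjusted p = 0.0526) just missed the threshold. Alad, an early enzyme of haem synthesis, stood at 58.3 ± 39.1 CPM in aged against 17.7 ± 7.96 CPM in young (log2 1.72; edgeR adjusted p = 0.21).

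Among the regulators, 0 of 6 tested genes passed in any comparison. Fbxl5, the iron-sensing subunit of the ligase that degrades IRP2, averaged 87.8 ± 34.1 CPM in aged+Ri, 43.6 ± 14.7 CPM in aged and 36.0 ± 8.68 CPM in young (log2 difference from aged 1.01, edgeR adjusted p = 0.501, and from young 1.28, adjusted p = 0.114). Nfe2l2, which encodes NRF2, averaged 354.1 ± 57.6 CPM in aged+Ri, 211.8 ± 18.6 CPM in aged and 180.3 ± 63.9 CPM in young (log2 difference from aged 0.74, edgeR adjusted p = 0.503, and from young 0.97, adjusted p = 0.109). Every aged+Ri library was above every other for Nfe2l2. Between aged and young, the genes with the smallest p were Hif1a, a hypoxia factor, at 34.4 ± 12.2 against 98.1 ± 46.5 CPM (log2 -1.51; edgeR adjusted p = 0.201), and Bach1, a haem-sensing repressor, at 50.7 ± 9.16 against 84.7 ± 48.9 CPM (log2 -0.74; adjusted p = 0.533).

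In uptake and reduction, 0 of 10 tested genes passed. Tfr2, the second transferrin receptor, averaged 42.5 ± 13.0 CPM in young, 14.4 ± 6.48 CPM in aged and 6.84 ± 3.92 CPM in aged+Ri (log2 difference from young -1.56, edgeR adjusted p = 0.268, and -2.63, adjusted p = 0.0681). Mcoln1, a lysosomal channel that releases iron, stood at 7.36 ± 3.09 CPM in young against 26.3 ± 12.8 CPM in aged and 29.8 ± 9.49 CPM in aged+Ri (log2 1.84, edgeR adjusted p = 0.214, and 2.02, adjusted p = 0.0967). Tfr2 and Tfrc thus both had their lowest group mean in aged+Ri. Lcn2, which binds iron-carrying siderophores and is also a neutrophil gene, was at 0.0273, 0 and 40.4 CPM in aged libraries, so that aged 3, the library with the highest neutrophil sum, made up its group mean, and at 0.0561, 0 and 0 CPM in aged+Ri.

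The remaining lists held few differences. Of the 19 tested genes of mitochondrial iron and iron-sulfur clusters, Isca1, a cluster carrier, came next after Glrx5, at 65.8 ± 26.0 CPM in young against 157.0 ± 46.9 CPM in aged (log2 1.26; edgeR adjusted p = 0.203) and 185.0 ± 46.9 CPM in aged+Ri (log2 1.49; adjusted p = 0.072). In aged+Ri against aged, the chaperone Hspa9 (log2 0.93; edgeR adjusted p = 0.564) and Mms19 (log2 -0.70; adjusted p = 0.81) had the smallest p. Of 4 tested storage and turnover genes 0 passed, and Pcbp1, a chaperone that delivers iron to ferritin, was lower in aged (104.7 ± 13.0 CPM) and aged+Ri (115.6 ± 26.8 CPM) than in young (181.1 ± 38.0 CPM), with log2 differences of -0.79 (edgeR adjusted p = 0.254) and -0.65 (adjusted p = 0.233). Herc2 and Tax1bp1, which bear on NCOA4 and ferritin turnover, differed from aged to aged+Ri by 0.56 (edgeR adjusted p = 0.774) and 0.46 (adjusted p = 0.76) on the log2 scale. Of 6 tested genes on the export and hepcidin list, not all of them exporters, 0 passed. The haem transporters on it, Slc48a1, Abcg2 and Flvcr1, gave edgeR adjusted p values of at least 0.336. The smallest edgeR adjusted p on that list was 0.264 for aged against young and 0.107 for aged+Ri against young.

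**Figure D4:**
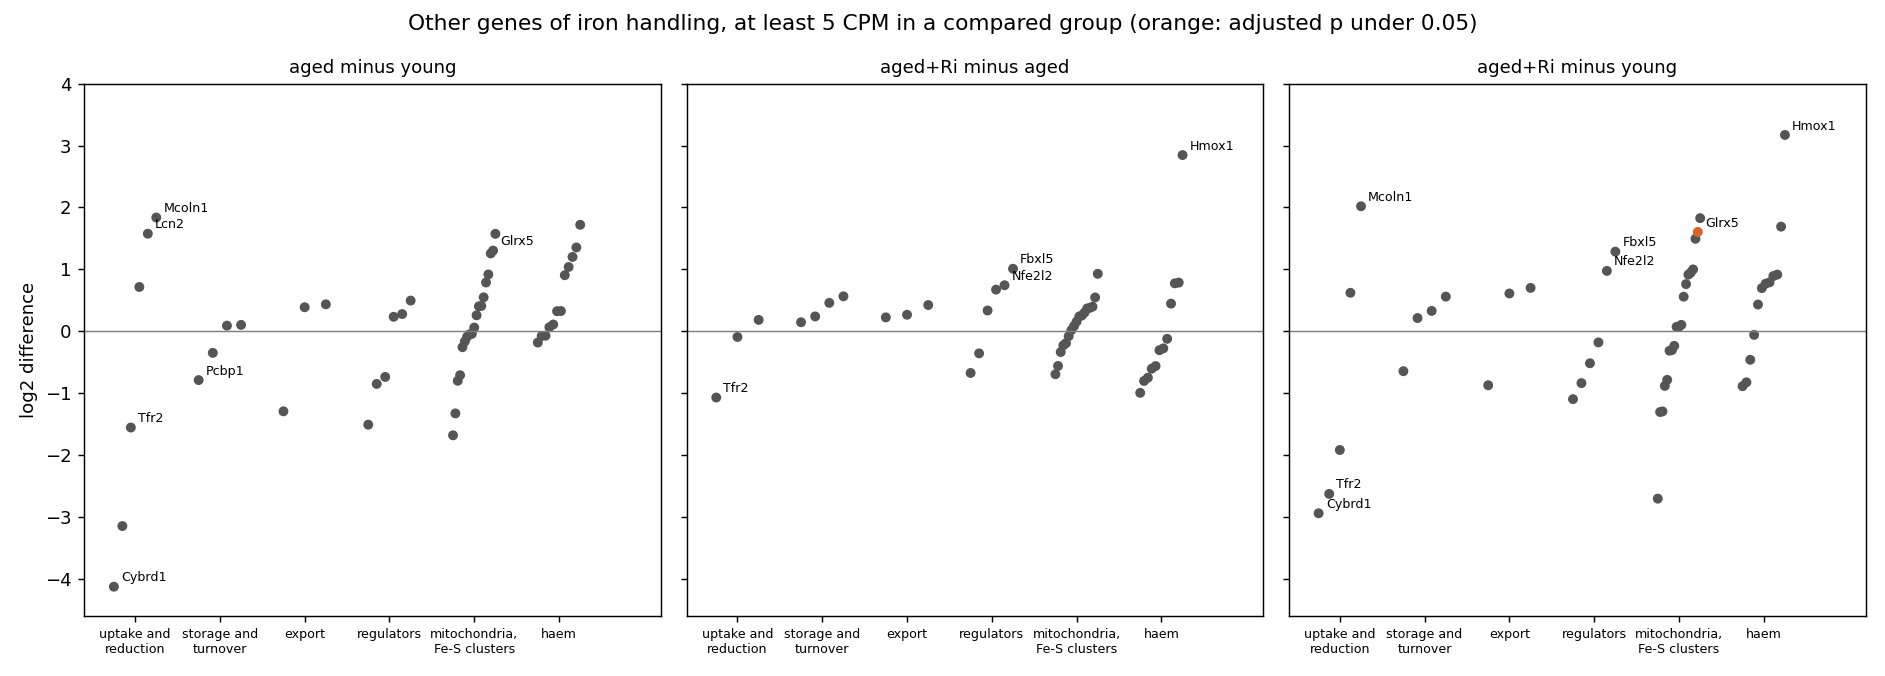
Log2 differences (vertical axis) of the other iron handling genes with at least 5 CPM in a compared group, in 6 lists along the horizontal axis, for the 3 comparisons; each point is 1 gene, orange marks an edgeR adjusted p under 0.05, and genes with a compared group at 3 counts or fewer are left out of that panel. Glrx5 (1.60, aged+Ri against young) is the only orange point, and Hmox1 is the highest point in both aged+Ri panels, at 2.85 and 3.17.

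Markers of other cells moved with the groups, and their part in the ferritin, Ncoa4 and Slc40a1 differences was not tested. In aged+Ri against aged all 9 tested neutrophil and progenitor markers were lower in aged+Ri, 6 of them at an unadjusted p under 0.05 and 0 past edgeR's adjusted threshold, and Mpo was at 0 in aged+Ri 2 and 3. Red cell markers summed to between 119.3 and 816.2 CPM in young, 152.0 and 168.7 CPM in aged, and 845.4 and 1633 CPM in aged+Ri libraries, of which 8 of 12 tested were higher in aged+Ri than in aged. Against young, 9 of the 12 were lower in aged+Ri, with a median log2 difference of -1.69. Some of those 9 passed the filter on low counts only through the young group, so their direction was fixed. The aged+Ri sums were mostly the globins Hba-a1 (428.0 to 899.7 CPM) and Hba-a2 (276.3 to 602.4 CPM), while the carbonic anhydrase gene Car1 was at 0 in all 3 aged+Ri libraries. Macrophages, which recycle iron and express ferritin, Slc40a1 and Hmox1, had marker sums between 103.2 and 147.3 CPM in aged+Ri, 222.7 and 1534 CPM in aged, and 134.8 and 524.6 CPM in young libraries, with 6 of 9 tested markers lower in aged+Ri than in aged. Without Lyz2, which neutrophils also express, the macrophage sums were 76.6 to 134.0 CPM in aged and 46.3 to 116.4 CPM in aged+Ri libraries and overlapped. Their defining marker C1qa was at 0 in every aged and aged+Ri library, but at most 0.257 CPM in a young one. Between 3 and 6 of the 13 listed macrophage markers were at 0 in each aged or aged+Ri library. Others were present: Cd68 was at 51.9 to 58.7 CPM in aged and 27.6 to 98.4 CPM in aged+Ri libraries. Spic was at 13.6 to 26.1 and 11.9 to 34.6 CPM. The 0 for C1qa thus does not show that macrophage RNA was absent. The share of counts from mitochondrially encoded genes was 4.14% to 4.68% in young, 2.57% to 3.54% in aged and 1.57% to 2.56% in aged+Ri libraries, and its part in these results was not tested.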

How the data were processed

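The authors deposited 1 table of estimated counts per gene, 21939 genes by 9 libraries, made from SMART-Seq v4 and Nextera XT libraries per the labels' protocols. The tools named for GRCm38 are featureCounts, STAR 2.7.0, cutadapt 1.18, R 4.2.0 and SAMtools 1.14, per the submitters' processing notes. How the counts came to be partly fractional, and whether strand was used, is not given in the sources used here: 71.6% to 80.9% of a library's values were whole within 0.005. Shared reads may be split between copies.

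Counts were rounded before any count model. Genes were kept by filterByExpr (15127 of 21939), scaled by TMM, and fitted in 1 model of the 3 groups on 9 libraries (edgeR 4.0.16, glmQLFit with robust estimation, quasi-likelihood F-tests, two-sided, with p adjusted by Benjamini-Hochberg over these genes, threshold 0.05, 6 residual degrees of freedom before pooling over genes). SE is the log2 difference divided by the root of F. CPM are TMM-normalised from the unrounded deposited counts and given as mean ± SD. Within-batch values use log2(CPM + 0.5) and compare 1 library with 1, or in batch 2 the mean of 2 aged+Ri libraries with 1. Transcript lengths, coordinates and elements come from GENCODE M21. Alternatives were DESeq2 1.42.0, limma-voom 3.58.1, other filters, scalings, sample sets, a batch covariate, a replicate block and leaving out each library. The code was run on simulated counts that held no batch, sex or cell mixture, which says nothing about whether the calls made here hold. The printed 95% intervals come from edgeR's fit and include the spread between libraries, while the floor of 3 counts covers counting error only.

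The members and lists were chosen with earlier results of these data known. Named were all 10 members, up to 2 genes per list and comparison with the smallest unadjusted p among those with a group mean of at least 5 CPM (any called gene included), the 5 genes nearest to Fth1 and to Ftl1, the ferritin copies, and up to 3 defining genes of each marker list. Heph and Cp were named outside this rule, because they passed the filter on low counts only through the young group. Mast cell and basophil markers summed to 2.98 to 102.4 CPM in young, 23.7 to 274.2 CPM in aged and 0 to 5.90 CPM in aged+Ri libraries, and mature lymphoid markers to 227.8 to 13538, 155.9 to 758.8 and 68.2 to 137.8 CPM.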

Additional observations from a re-analysis of the deposited data

How the results depend on the processing

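Of the 10 members, the number called between aged and young was 0, 2 with DESeq2, 1 with young 1 as the only young library, and 0 to 1 on leaving out each library. Between aged+Ri and aged it was 0 in every alternative tried. Between aged+Ri and young it was 3, 8 with DESeq2, 0 with only the 2 groups compared, 1 with sequencing batch as a covariate, 2 with DESeq2 size factors and with the stricter filter, and 0 to 3 on leaving out each library. The labels do not say that a shared replicate number marks shared mice, although some same-numbered libraries share a sequencing batch, and the correlations of their deviations from the group means, -0.072 to 0.122, did not pair them. A replicate block left the calls at 0, 0 and 3, the latter again Fth1, Ftl1 and Ncoa4. Over all genes, the number called between aged+Ri and young was 145 up and 74 down, 789 up and 2022 down with DESeq2, 327 up and 317 down with limma-voom, and 27 up and 30 down with only the 2 groups compared.

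Signs turned as follows (log2), and the cause was not tested. With the batch covariate, Fth1 was at -0.011 (aged against young), Ireb2 at -0.043 (aged+Ri against aged) and Slc40a1 at -0.19 (aged+Ri against young). Young 1 was alone in its batch level and added nothing to the group differences of that fit. Without young 2, Ireb2 was at 0.14 and 0.21 (aged and aged+Ri against young). Without aged 1, it was at 0.02 (aged against young) and -0.078 (aged+Ri against aged). Without aged 3, Slc40a1 was at 0.21 (aged against young) and Ireb2 at -0.06 (aged+Ri against aged), and without aged+Ri 1 Ireb2 was at 0.06 (aged+Ri against young). On leaving out each library, Slc40a1 ran from -0.75 to 0.21 (aged against young), and Ireb2 from -0.38 to 0.14 (aged against young), from -0.078 to 0.37 (aged+Ri against aged) and from -0.17 to 0.21 (aged+Ri against young). With young 1 as the only young library, Slc40a1 and Ireb2 were at 0.14 and 0.014 (aged against young) and Ireb2 at 0.12 (aged+Ri against young). Within batch 3, aged against young, Fth1 was at -0.82 and Ftl1 at -0.25. Within batch 2, aged+Ri against aged, Aco1 was at 0.22 and Ireb2 at -0.24. Steap3 has no value within batch 1, where both libraries were at or under 3 counts. Groups of 3 libraries limit every comparison, and Steap3 was limited by its 0 to 27 counts in a library.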
